A study of Canis lupus familiaris with 6 samples.

Results

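The membrane carriers that move sugars, carboxylates and other small organic solutes were examined in canine kidney cells carrying 2 oncogenic changes. They were the probes of a canine gene expression array whose gene name was SLC2A, SLC5A, SLC10A, SLC13A, SLC15A, SLC16A, SLC17A, SLC22A, SLC28A, SLC29A, SLC37A, SLC45A, SLC47A or SLCO followed by a number. This rule found 80 gene symbols in 13 of the 14 families, out of 34378 distinct entries in the gene name column, which holds identifiers as well. They were read by 110 of 43603 probes. SLC47A was named by no probe.

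MDCK cells are an epithelial line from dog kidney. All samples were MDCK-pTR GFP-RasV12 cells that also expressed mCherry-β-catenin Δ131 (β-cat ΔN/RasV12 cells). They carry GFP-tagged RasV12, an active Ras oncoprotein induced by tetracycline, and an mCherry-tagged β-catenin that lacks its N-terminus and so escapes degradation. They were grown on collagen-coated dishes either alone (single culture, 3 arrays) or mixed with 10 MDCK mCherry-β-catenin Δ131 cells (β-cat ΔN cells) for each of their own (mix culture, 3 arrays). After 24 h of tetracycline, which both cultures received, the cells positive for GFP were collected by sorting, and Cy3-labelled total RNA was hybridised to Agilent 1-colour arrays. The question of the comparison was what changes in RasV12 cells when β-cat ΔN cells surround them. Both groups carried both oncogenes, so neither shows an untransformed cell. The labels do not say whether the 3 replicates were separate cultures, and p-values measure the spread between these arrays, which may be technical.

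Solute carriers set what a kidney tubule cell takes from the filtrate and what it passes to the blood. SLC2A proteins (GLUTs) let hexoses down their gradient, and many SLC5A proteins (SGLTs and relatives) couple sugars, inositol, iodide or lactate to sodium. Many SLC16A proteins carry lactate, pyruvate and other monocarboxylates, and some SLC13A proteins carry citrate and succinate. Some SLC10A proteins carry bile acids and steroid sulfates, and SLC15A proteins small peptides. SLC22A and SLCO proteins take up organic ions and drugs, SLC29A proteins carry nucleosides, and SLC17A5 and SLC37A4 work in lysosomes and the endoplasmic reticulum.

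Each array held 43803 non-control spots, of which 61.11% to 65.66% were well above background by the scanner's own flag. No spot was saturated, and signals that passed this flag began at 4.19 to 4.48 intensity units. Replicate 1 of each group lay on slide 1 and the other 4 arrays on slide 2, so that each slide held both groups. All 7 kidney epithelium markers on the array (CDH1, CDH16, EPCAM, KRT18, OCLN, TJP1 and CLDN4) were well above background on all 6 arrays. Their summed signal was 80129 to 117870 in single culture and 67535 to 89204 in mix culture. No probe of the fibroblast markers COL3A1, DCN and PDGFRA, the endothelial marker TEK or the leukocyte marker PTPRC passed on any array, although COL1A2, PECAM1, KDR, CD3E and CD68 passed on all 6. In each of these lists limma called 0 probes.

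In a comparison of mix with single culture that left slide and replicate number out of the model, as the study's methods do, no transporter probe was called. With slide as a term 3 were called (5.66%, against 7.2% of all tested probes). With replicate number as a term 1 was called, against 5.25% of all tested probes. That probe, of SLC13A2, was also 1 of the 3, and was tested through the higher group alone. Values were log2 signals relative to each array's 75th percentile (normalised log2 signal), compared with limma and called at a Benjamini-Hochberg adjusted p under 0.05 over all probes tested. A probe was tested where all arrays of 1 or both groups had it well above background. Of the 53 transporter probes tested, for 41 symbols, limma called 0, and the smallest adjusted p was 0.401. Over the whole array 235 of 26623 tested probes were called, or 0.883%. At an unadjusted p under 0.05 there were 4 transporter probes, for SLC13A2, SLC16A12, SLC10A6 and SLC2A1 (7.55%, against 8.71% of all tested probes).

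On the normalised scale, 15.1% of the tested transporter probes had groups that did not overlap, against 16.5% of all tested probes. These were 8 probes. Their 60-base sequences are printed here, 5′ to 3′, because the values that follow rest on these stretches of transcript alone. Positions are those of the array design on CanFam3.1, and where a start is listed above its end the strand is given as minus. No exon or UTR annotation was used here.
SLC13A2, chr9:42713103-42713162, plus: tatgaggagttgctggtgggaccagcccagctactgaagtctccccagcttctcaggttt
SLC16A10, chr12:67677588-67677647, plus: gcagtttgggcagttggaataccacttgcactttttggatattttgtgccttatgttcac
SLC10A6 probe 1, chr32:10335590-10335649, minus: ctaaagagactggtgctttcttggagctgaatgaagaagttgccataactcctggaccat
SLC10A6 probe 2, chr32:10342900-10342959, minus: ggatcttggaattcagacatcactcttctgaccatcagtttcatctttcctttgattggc
SLC16A12, chr28:4346228-4346287, minus: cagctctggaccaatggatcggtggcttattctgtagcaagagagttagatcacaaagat
SLC2A1 probe 1, chr15:492151-492210, plus: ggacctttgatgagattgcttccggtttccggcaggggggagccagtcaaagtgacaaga
SLC22A6, chr18:53744176-53744235, plus: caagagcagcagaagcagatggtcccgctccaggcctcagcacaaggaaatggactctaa
SLC45A1, chr5:61861167-61861226, plus: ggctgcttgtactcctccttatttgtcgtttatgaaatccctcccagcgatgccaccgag
The 2 SLC10A6 probes lie 7250 bases apart. The 110 probes carried 108 distinct sequences. The 2 probes of SLC5A12 shared one, as did 2 of the probes of SLC22A9, and no transporter sequence was shared with another gene's probe.

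About 1 in 2 transporter probes gave a usable signal. Of the 110, 48 were well above background on all 6 arrays, 5 more passed on all arrays of at least 1 group, and 57 were not tested. Together the tested probes made up 48.2%, against 61.1% of all probes on the array. Of the 57 untested probes, 43 were not well above background on any array, with signals of 0.855 to 5.03 units, and 28 symbols had no probe that passed anywhere.

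**Figure D1:**
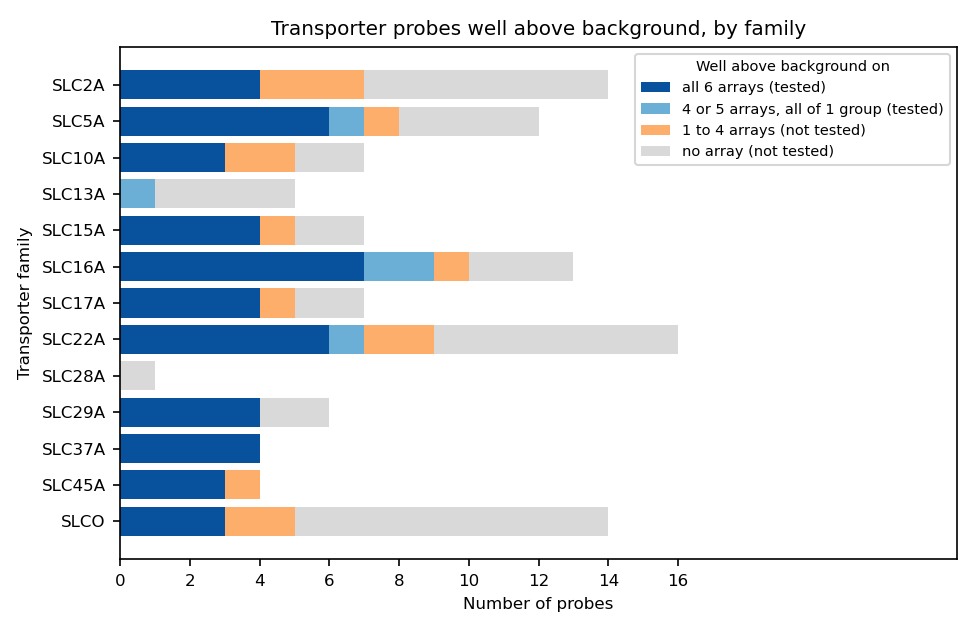
Number of transporter probes per family (horizontal axis), stacked by the number of arrays on which a probe was well above background. All 4 SLC37A probes passed on all 6 arrays, whereas 9 of 14 SLCO probes passed on none.

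The sugar carriers with no usable signal included SLC2A2 (GLUT2), SLC2A4 (GLUT4), SLC2A5 (the fructose carrier) and SLC2A9 (a urate carrier). The SLC2A2 probe read 0.881 to 0.901 units on all arrays. Neither of the 2 probes of SLC13A3, a sodium-dicarboxylate carrier, passed on any array, nor did those of SLC10A2 (the ileal and renal bile acid carrier), SLC16A7 (MCT2) or SLC28A3 (a concentrative nucleoside carrier). Among the SLCO family none of the probes of SLCO1A2, SLCO1B3, SLCO1C1, SLCO2B1 and SLCO4C1 passed.

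A further 10 untested probes were well above background on 1 array only. Of these, 4 passed on mix culture replicate 1. SLC5A1 (SGLT1), the apical glucose carrier of gut and late proximal tubule, read 16.5 units there and 1.03 on both other mix arrays, against 3.61, 1.30 and 1.38 in single culture. SLC15A1 (PEPT1), the intestinal peptide carrier, read 9.68 units there and 0.919 to 0.95 on the other 5 arrays. That no second array passed follows from how the 10 were chosen, and none was compared between groups. For 1 of the 4, a probe of SLC16A9 with 8.09 units on mix culture replicate 1, the other mix arrays also read above single culture. They gave 3.06 and 2.77 units, below the flag, against 1.72, 1.42 and 0.899. The other SLC16A9 probe passed on no array.

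Across the tested transporters the differences were small, and more were below 0 than above it. The fitted log2 change (mix minus single culture) ranged from -0.75 to 0.74, and was above 0 for 18 probes and below 0 for 35, with a median of -0.17. Over all tested probes the median was -0.05, with 42% above 0, against 34% for the transporters. A background correction that adds an offset of 50 units (normexp) was also tried. With it the split was 11 above and 42 below and the median was -0.09. The share above 0 over the whole array was then 35.7%. For signals below the offset, normexp draws a change of any size towards 0, so a small value there does not test the change. Since RNA came from bulk sorted cells, fewer expressing cells and less RNA per cell cannot be told apart for any of these values. No transporter reached a fitted 2-fold change, which 2.27% of all tested probes did. The intervals were wide, with a median half-width of 0.57 on the log2 scale. For 35 of the 53 probes the 95% interval stayed within a 2-fold change in either direction, and for the other 18 it did not, so that a change of that size was not excluded by these 6 arrays.

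**Figure D2:**
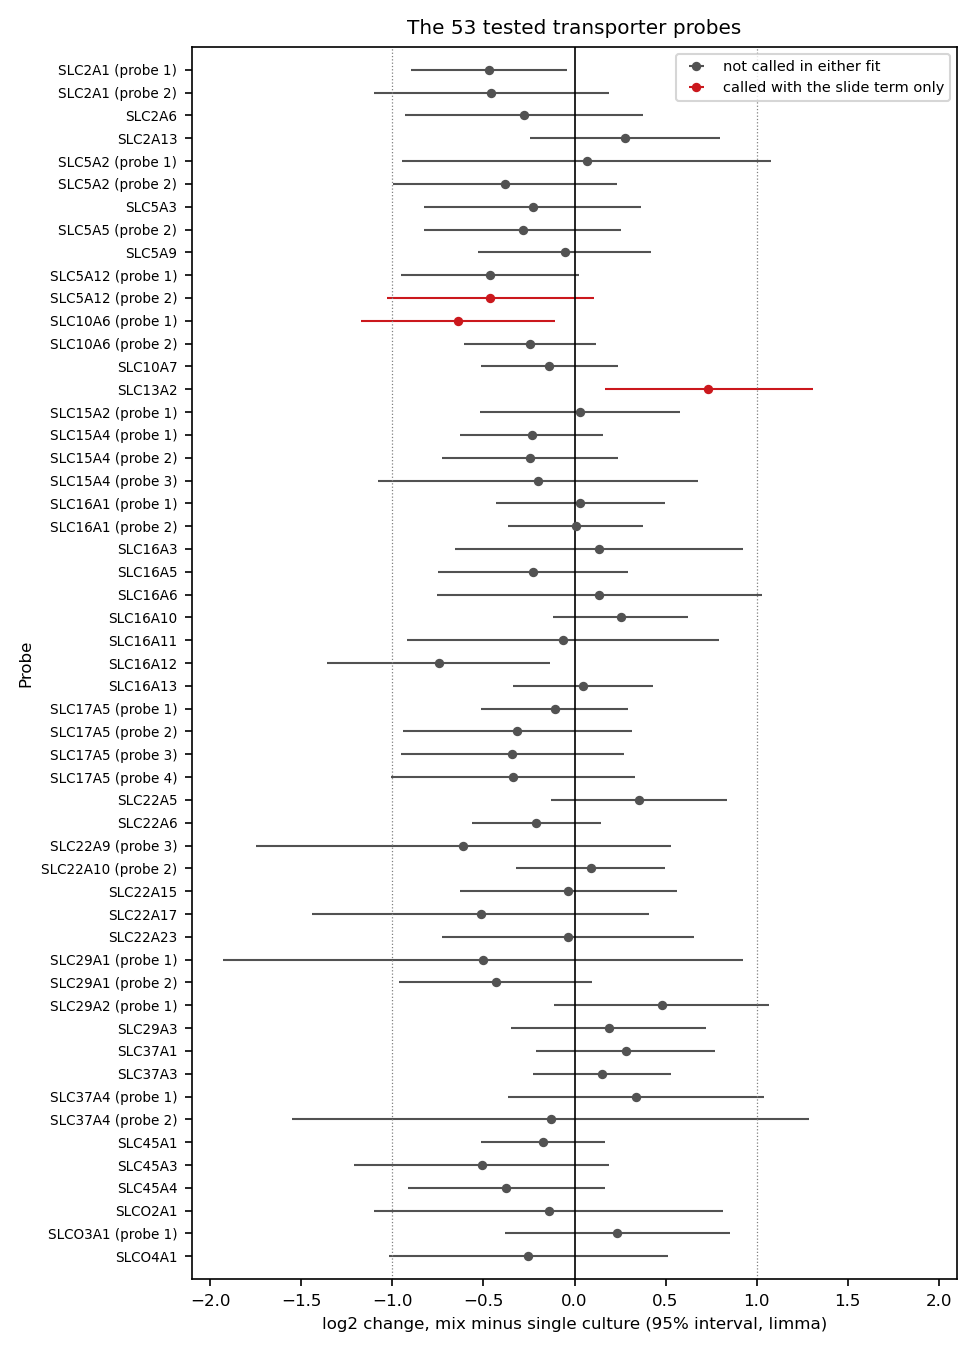
Fitted log2 change, mix minus single culture, of each of the 53 tested transporter probes (points) with its 95% interval from limma (bars), in family order. Dotted lines mark a 2-fold change. The interval excluded 0 for 4 probes and included it for 49.

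The largest value above 0 belonged to sodium-dicarboxylate transport. SLC13A2 (NaDC1), which takes up citrate and succinate at the apical membrane of the proximal tubule, gave signals of 6.27, 3.69 and 3.14 units in single culture replicates 1 to 3 and 10.9, 5.89 and 5.97 units in mix culture. After scaling, the values were -5.04, -5.50 and -5.78 in single culture and -4.41, -4.94 and -4.75 in mix culture, so all 3 mix arrays lay above all 3 single arrays. The log2 change was 0.74 ± 0.24 (SE), a 1.66-fold higher signal, with a limma adjusted p of 0.401. Its probe was well above background on 1 of 3 single arrays and on 3 of 3 mix arrays, close to the limit of measurement. The change was 0.63 on slide 1 and 0.79 on slide 2. With slide as a term in the model the adjusted p was 0.0119, and with replicate number as a term 0.0254, so that both fits called it. The probe was tested only because all 3 arrays of the higher group passed the background flag, so these calls are given as a description, and among probes that passed on all 6 arrays the slide term gave 2 transporter calls, none above 0. With normexp the change was 0.06 (limma adjusted p = 0.998), but its offset of 50 units exceeds these signals and draws such a change towards 0. The other 3 SLC13A symbols had no probe well above background.

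In the SLC10A family, all 3 tested probes were lower in mix culture, with changes of -0.14 to -0.64. These were the 2 probes of SLC10A6 and the probe of SLC10A7. No probe of the bile acid carriers SLC10A1 and SLC10A2 was tested. SLC10A6 (SOAT), a carrier of sulfated steroids, was measured by 2 probes. Probe 1 gave 16.2, 7.85 and 8.78 units in single culture and 9.16, 6.69 and 5.55 in mix culture, close to the limit of measurement. The scaled groups did not overlap (-4.41 to -3.66 in single and -4.86 to -4.67 in mix culture), and the log2 change was -0.64 ± 0.22 (SE), with limma adjusted p of 0.451, or 0.0321 with the slide term. That difference was larger on slide 1 (-1.01) than on slide 2 (-0.46). With normexp, whose offset of 50 units exceeds these signals, the change was -0.15. Probe 2 gave 32.3, 23.6 and 22 units in single culture and 26.5, 21.6 and 20.3 in mix culture, with a change of -0.24 ± 0.15 (SE). Its scaled groups did not overlap either, but it was called in neither fit (adjusted p of 0.783 and 0.229). SLC10A7, which affects calcium handling and glycosylation, had a change of -0.14 ± 0.16 (SE), within its error. SLC10A1 (NTCP), the hepatic bile acid carrier, had 2 probes that passed on some arrays of both groups and were not tested.

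The sodium-coupled carriers of the SLC5A family had 7 tested probes, 6 of them with a change below 0. None was called without the slide term, and 1 was with it. SLC5A12 (SMCT2), a renal sodium-lactate carrier, was read by 2 probes of identical sequence, which serve as a check on precision. The first gave 146, 97.0 and 80.7 units in single and 114, 68.3 and 64.3 in mix culture. The second gave 136, 73.6 and 72.6 units in single and 106, 60.1 and 50.1 in mix culture. In both, every mix array lay below the single array of the same replicate number, and the groups overlapped because both slide 1 values were the highest of their group. The log2 changes were -0.47 ± 0.21 and -0.46 ± 0.24 (SE), and -0.28 for both with normexp. With the slide term the limma adjusted p was 0.0566 for the first and 0.0345 for the second, so the same sequence fell on both sides of the threshold.

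SLC5A2 (SGLT2), the main glucose carrier of the early proximal tubule, gave 20.7, 8.74 and 5.88 units in single and 20.8, 8.40 and 8.02 in mix culture with its first probe. These groups overlapped, and the change of 0.07 ± 0.43 (SE) reversed sign with normexp (-0.04), whose offset of 50 units exceeds these signals. Its second probe passed on 3 of 3 single and 1 of 3 mix arrays, so it was tested through the higher group alone. That probe had a change of -0.38 ± 0.26 (SE). SLC5A3 (SMIT1), which brings in the osmolyte myo-inositol, gave 86.9, 90.0 and 131 units in single and 90.8, 95.7 and 83.9 in mix culture, a change of -0.23 ± 0.25 (SE) that was -0.006 without single culture replicate 3. SLC5A5, the iodide carrier, and SLC5A9, which carries mannose and glucose, had changes of -0.28 ± 0.23 and -0.05 ± 0.20 (SE).

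Of the facilitative hexose carriers, SLC2A1 (GLUT1), through which most cell lines take up glucose, had lower mean signals in mix culture with both of its probes. Probe 1 read 1150, 907 and 1010 units in single and 791, 897 and 642 in mix culture, without overlap after scaling (2.45 to 2.55 against 1.77 to 2.31). The change was -0.47 ± 0.18 (SE), a 1.38-fold lower signal, with limma adjusted p of 0.521, or 0.0785 with the slide term. Probe 2, 869 bases away, read 20500, 8530 and 10300 units in single and 13200, 9000 and 6730 in mix culture. After scaling these groups overlapped, since mix culture replicate 1 (5.82) stood above single culture replicate 2 (5.68), and the change was -0.46 ± 0.27 (SE). Neither probe was called in either fit. For probe 2 the difference was -0.82 on slide 1 and -0.28 on slide 2, and the change was -0.17 without single culture replicate 1. For SLC2A6 the change was -0.28 ± 0.28, and for SLC2A13 (HMIT), a proton-coupled inositol carrier, 0.28 ± 0.22 (SE). SLC2A3 (GLUT3) had 1 probe that passed on mix culture replicate 3 alone and another that passed on replicate 1 of each group (13.7 and 11.1 units).

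**Figure D3:**
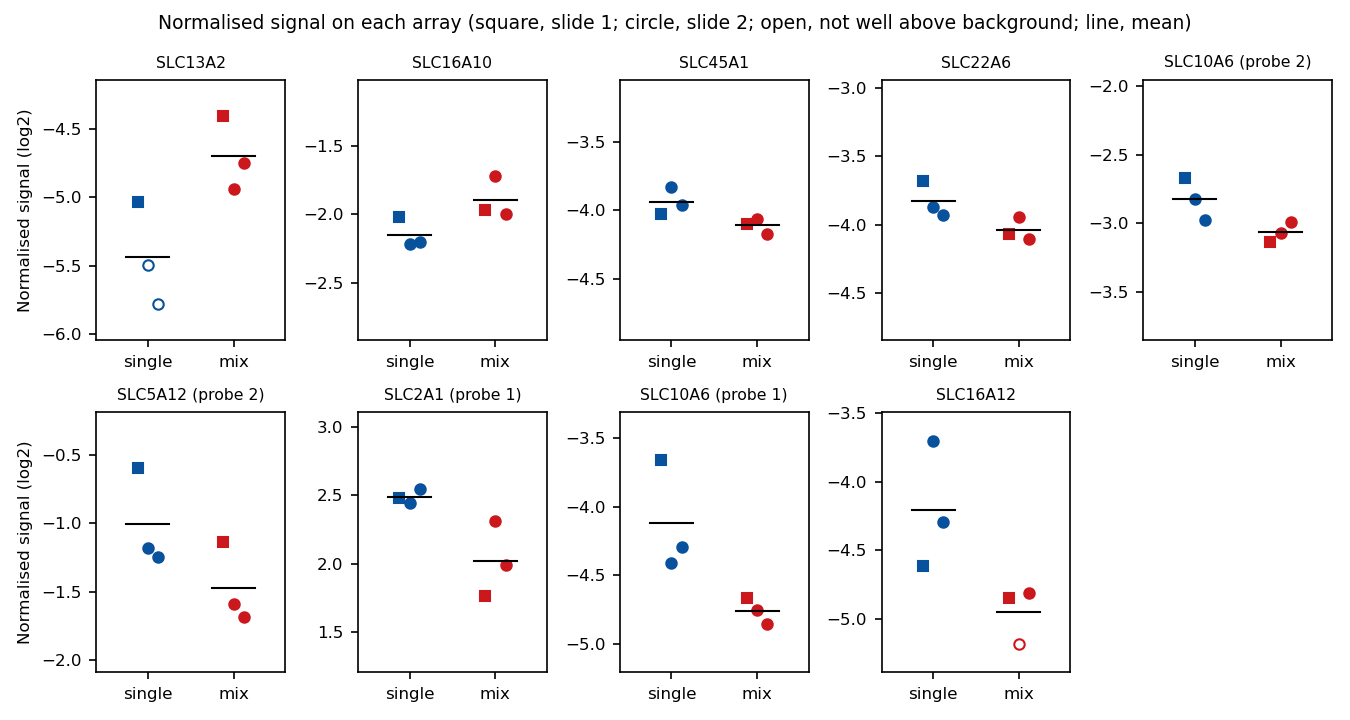
Normalised log2 signal of the 8 probes whose groups did not overlap and of SLC5A12 probe 2, called with the slide term. Each point is 1 array, squares are slide 1, circles are slide 2, open symbols were not well above background and lines are group means over 3 arrays. The mix values of SLC13A2 and SLC16A10 lie above those of single culture, and those of the other 7 panels have lower means.

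The monocarboxylate carriers of the SLC16A family had 9 tested probes, 6 above 0 and 3 below, with a median of 0.03 that became -0.01 with normexp. SLC16A12 (MCT12), a creatine carrier, had the lowest value of any transporter. Its signals were 8.41, 12.8 and 8.79 units in single and 8.09, 4.97 and 5.73 in mix culture, with no overlap. It passed the background flag on 3 of 3 single and 2 of 3 mix arrays. It was thus tested through the higher group alone, and its value is given as a description. The change was -0.75 ± 0.26 (SE), with limma adjusted p of 0.439, or 0.0809 with the slide term, and it was -0.24 on slide 1 and -1.0 on slide 2. With normexp, whose offset of 50 units exceeds these signals, it was -0.14.

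SLC16A10 (TAT1), which carries aromatic amino acids, gave 50.6, 35.9 and 37.4 units in single and 59.6, 54.9 and 40.3 in mix culture. After scaling its groups did not overlap (-2.22 to -2.02 against -2.0 to -1.72), but the gap between them was narrow, and the change was 0.25 ± 0.16 (SE, adjusted p = 0.777). None of the 3 probes of the proton-coupled lactate carriers had groups that separated. SLC16A1 (MCT1), which moves lactate and pyruvate with a proton, gave 265, 143 and 160 units in single and 256, 174 and 166 in mix culture with probe 1, a change of 0.03 ± 0.20 (SE, 95% interval -0.43 to 0.50). Its probe 2 gave 63.9, 55.6 and 58.5 in single and 68.3, 59.1 and 59.8 in mix culture, a change of 0.01 ± 0.16 (SE, 95% interval -0.36 to 0.38). SLC16A3 (MCT4), the lactate exporter of glycolytic cells, gave 391, 570 and 542 units in single and 461, 744 and 533 in mix culture, a change of 0.13 ± 0.34 (SE) with a wider 95% interval, from -0.66 to 0.93.

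The organic ion carriers of the SLC22A family had 7 tested probes, with changes from -0.61 to 0.35 and none called in either fit. SLC22A6 (OAT1), which takes organic anions from blood into the proximal tubule, gave 16, 11.4 and 11.3 units in single and 13.9, 11.7 and 9.37 in mix culture. These signals overlapped as scanned, while the scaled values did not (-3.93 to -3.69 against -4.10 to -3.95), and the change was -0.21 ± 0.15 (SE, limma adjusted p = 0.819). SLC22A5 (OCTN2), the carnitine carrier, gave 7.25, 6.64 and 9.13 units in single and 14.2, 8.53 and 8.69 in mix culture. Its change of 0.35 ± 0.21 (SE) reversed sign with normexp (-0.01), whose offset of 50 units exceeds these signals. SLC22A17, a receptor for lipocalin-2, and SLC22A9 had lower means in mix culture, with the larger difference on slide 1. For SLC22A17 the difference was -1.47 on slide 1 and -0.04 on slide 2, and for SLC22A9 it was -1.19 and -0.32. The tested SLC22A9 probe passed on 3 of 3 single and 1 of 3 mix arrays, so it was tested through the higher group alone. SLC22A2 (OCT2) and SLC22A4 (OCTN1) passed on 1 single culture array each and were not tested.

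SLCO2A1, the prostaglandin carrier, gave 82.6, 30.2 and 29.9 units in single and 75.7, 27.8 and 30.4 in mix culture, overlapping groups with a change of -0.14 ± 0.41 (SE). SLCO3A1 gave 414, 261 and 256 in single and 654, 275 and 287 in mix culture, a change of 0.23 ± 0.26 (SE). For SLCO4A1, a carrier of thyroid hormones and other organic anions, the signals were 39.1, 31.1 and 39.4 in single and 23.2, 41.4 and 33.7 in mix culture. Its change of -0.25 ± 0.33 (SE) was -0.93 on slide 1 and 0.09 on slide 2, so that the direction depended on the slide.

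Nucleoside and peptide carriers were likewise below the threshold. SLC29A1 (ENT1), the main equilibrative nucleoside carrier, gave 625, 804 and 682 units in single and 548, 569 and 512 in mix culture with its second probe, and 11.9, 35.4 and 27.9 against 9.89, 25.3 and 19.0 with its first. Mix culture was lower on each slide, with differences of -0.37 and -0.46 for the second probe and of -0.45 and -0.53 for the first, and limma gave adjusted p of 0.0630 and 0.0685 with the slide term. SLC29A2 (ENT2) went the other way, with a change of 0.48 ± 0.25 (SE, adjusted p = 0.708), from 15.4, 10.6 and 7.15 units in single to 20.8, 12.6 and 13.9 in mix culture. SLC15A2 (PEPT2), the renal peptide carrier, gave 8.67, 6.32 and 7.03 in single and 13.1, 5.64 and 6.36 in mix culture. Its change was 0.42 on slide 1 and -0.16 on slide 2. The 3 probes of SLC15A4, a lysosomal histidine and peptide carrier, had changes of -0.20 to -0.24.

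Carriers of internal membranes and the SLC45A family also had overlapping or nearly overlapping groups. All 4 probes of SLC17A5 (sialin), which exports sialic acid from lysosomes, had lower means in mix culture, with changes of -0.11 to -0.34, and all groups overlapped. One of them read 203, 84.2 and 101 units in single and 122, 93.5 and 85.3 in mix culture, so that its difference of -0.91 on slide 1 was not seen on slide 2 (-0.05). SLC37A4, which brings glucose 6-phosphate into the endoplasmic reticulum, had 2 probes of opposite sign. Probe 1 read 161, 250 and 212 units in single and 246, 284 and 281 in mix culture (0.34 ± 0.30, SE), and probe 2 read 1440, 385 and 420 in single and 1610, 356 and 357 in mix culture (-0.13 ± 0.60, SE). The 3 tested SLC45A probes were all below 0, at -0.17 to -0.51. SLC45A1, a proton-coupled sugar carrier, had scaled values of -4.02, -3.83 and -3.96 in single and -4.10, -4.06 and -4.17 in mix culture. These did not overlap, although the signals as scanned did (11.1 to 12.6 and 8.94 to 13.6), and the change was -0.17 ± 0.14 (SE, adjusted p = 0.857).

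The groups did not overlap for 8 of the 53 transporter probes, 2 with higher and 6 with lower values in mix culture. That was 15.1% of them, against 16.5% of all tested probes, of which 7.85% were higher and 8.66% lower. Among the 8, SLC13A2 and SLC16A12 were tested through the higher group alone. The difference had the same sign on both slides for 41 of 53 probes (77.4%, against 70.7% of all tested probes), 10 above 0 and 31 below.

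More transporter probes differed between the slides than between the cultures. In a limma model with both terms, 32 of the 53 probes (60.4%) differed between slides, against 47.2% of all tested probes, 17 of them brighter on slide 1 and 15 on slide 2. The 2 probes of SLC37A4 moved in opposite directions. Probe 2 was 3.14-fold brighter on slide 1 (adjusted p = 7.7e-05), while probe 1 was at 0.607 of its slide 2 level there (adjusted p = 0.0029). The first SLC29A1 probe stood at 0.321 of its slide 2 level on slide 1. With the slide term, limma called 3 transporter probes, or 5.66%, against 7.2% of all tested probes. They were SLC13A2, which was higher and was tested through the mix arrays alone (3.98% of all tested probes were called higher), and SLC10A6 probe 1 and SLC5A12 probe 2, which fell (3.22% were called lower). Without single culture replicate 3 or without mix culture replicate 3, the same model called 0, and without replicate 1 of either group it called 1. With replicate number as the term, limma called 1 transporter probe, SLC13A2, against 5.25% of all tested probes.

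**Figure D4:**
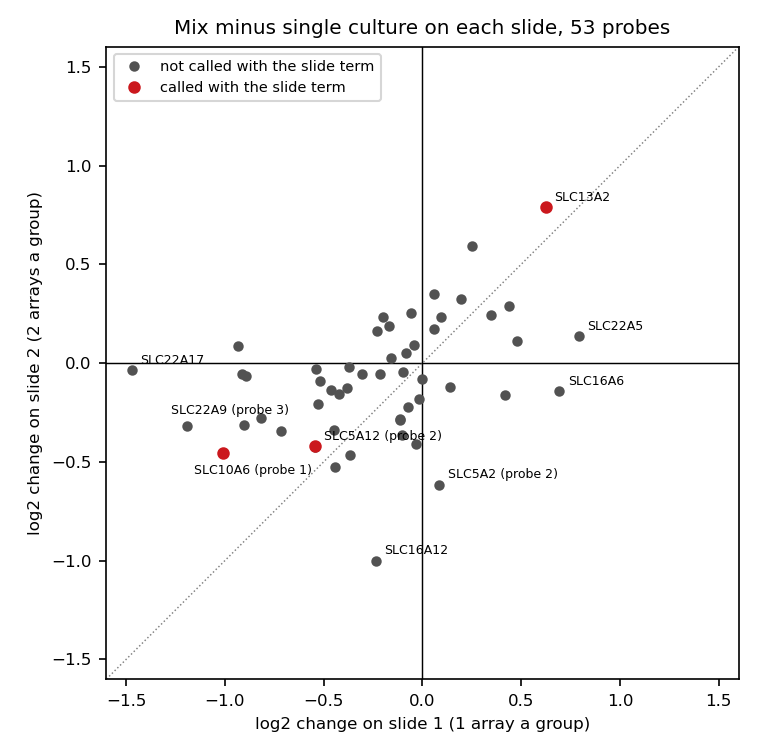
Difference between mix and single culture in normalised log2 signal on slide 1 (horizontal axis, 1 array a group) and slide 2 (vertical axis, 2 arrays a group) for the 53 tested transporter probes, with equal values on the dotted line. The 3 coloured probes were called with the slide term, and 3 probes differed by over 1 on slide 1, namely SLC22A17, SLC22A9 and SLC10A6 probe 1.

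Genes that work with these carriers were counted from a list of 43 names of chaperones, scaffold proteins, transcription factors and sugar kinases, of which 34 were on the array. Of their 50 tested probes limma called 0 without the slide term, with 7 at an unadjusted p under 0.05 (14%, against 8.71% of all tested probes). With the slide term it called 9 (18%, against 7.2%), 7 higher and 2 lower in mix culture, for 7 genes. The list was written with earlier results of these data known, so its shares do not test whether such genes change more often than others. MLXIPL (ChREBP), a glucose-sensing transcription factor, gave 604, 389 and 416 units in single and 1500, 988 and 723 in mix culture with one probe. These groups did not overlap, and the change was 1.09 ± 0.19 (SE), with limma adjusted p of 0.0681, or 0.00153 with the slide term. Its other probe had a change of 1.13 ± 0.39 (SE, 0.00391 with the slide term). Both probes of KHK (ketohexokinase, which phosphorylates fructose), and 1 each of PPARA, HNF4G and SGK1, were the other calls above 0 with the slide term. The PPARA probe passed the background flag on 1 of 3 single and 3 of 3 mix arrays, so it too was tested through the higher group alone. NR1I3 (a xenobiotic-sensing nuclear receptor) and SLC51A (a subunit of the basolateral organic solute carrier) were the calls below 0. SLC51B, also on the list, read 0.929, 1.5 and 1.35 units in single and 3.86, 6.49 and 4.91 in mix culture. Its probe passed on 0 single and 2 mix arrays and was not tested. The 6 probes of BSG, the chaperone of MCT1 and MCT4, had changes of -0.10 to -0.21, and the 4 probes of TXNIP, which restrains glucose uptake, of 0.13 to 0.21, with none called in either fit.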

How the data were processed

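Per the file headers, Agilent Feature Extraction (11.5.1.1 for slide 1, 12.1.1.1 for slide 2) subtracted the background within each array and gave each spot's intensity, without scaling between arrays. The authors deposited 1 such file per array and a log2 value table, whose steps are not given in the sources used here. There, the columns for replicates 2 and 3 of mix culture matched each other's scanner files, which leaves the group comparison as it is. The correlations were 0.977 and 0.979, against 0.465 and 0.433 for their own. For these, the normalised scanner values were centred by probe within each slide.

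Here, log2 of the processed signal was taken, 5 to 9 spots per array with outlier flags were dropped, repeat spots were averaged by probe, and the 75th percentile of each array (160.97 to 233.1 units) was subtracted. limma 3.58.1 in R 4.3.3 compared the groups (two-sided, Benjamini-Hochberg over 26623 probes). Same-numbered arrays deviated together (r of 0.801, 0.53 and 0.572), so a replicate block was fitted as an alternative, but on slide 2 arrays of unlike number did so at least as much (0.61 and 0.632). The numbers therefore could not be told apart from the slide as the source of this likeness. The model was tested on simulated data. The number of arrays limits the precision.

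SLC2A4RG, a transcriptional regulator, was left out, as were 17 probes that give a family in their description only (7 tested, 0 called). RefSeq (UU_Cfam_GSD_1.0) held 78 of the 80 symbols. Members and lists were chosen with earlier results of these data known. Named symbols were those called in either fit, the 7 whose groups did not overlap, and 27 of 32 well-known carriers on the array. One marker gene is not reported here.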

Additional observations from a re-analysis of the deposited data

How the results depend on the processing

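Called transporter probes stayed at 0 with limma under quantile normalisation, median centring, normexp, both filters and without any 1 array (0 to 0), and with the methods' t-test after adjustment (1 of 53 and 2590 of 26623 probes before it). The count was 3 with a slide block, 1 with a replicate block, 1 with crossed replicate numbers, 1 on slide 2 alone and 9 on the authors' table. Over all tested probes, 235 calls became 101 with normexp, 143 where all 6 arrays had to pass the background flag, 1917 with a slide block, 1399 with a replicate block, 1446 with crossed numbers, 983 on slide 2 alone, 8 with the methods' t-test and 4077 on the authors' table. They ranged from 86 to 242 without 1 array, with 94, 92 and 86 without single culture replicate 3, mix culture replicate 2 and mix culture replicate 3. Partner and regulator probes went from 0 to 1 with quantile normalisation, 9 with a slide block, 8 with a replicate block, 7 with crossed numbers, 3 on slide 2 alone and 9 on the authors' table. The 3 transporter calls of the slide block became 1 with no filter and 0 to 3 without 1 array. Crossing replicates 2 and 3, and normexp on the median spot signal of all arrays, were chosen after seeing the data. The cause was not tested.

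Among named probes, 467 of the values under other settings kept their direction and side of the threshold, 14 passed it and 26 reversed. The change of 48 of the 53 tested transporter probes moved by over 1.5 times without some 1 array. SLC5A2 probe 1 became -0.0434 and SLC22A5 -0.0137 with normexp, SLC15A2 -0.033 with normexp and -0.16 on slide 2 alone, SLC16A1 probe 2 -0.00677 with quantile normalisation and -0.00333 on the authors' table, and SLCO4A1 0.0874 on slide 2 alone. Without 1 array, the log2 change ranged from -0.30 to 0.48 for SLC5A2 probe 1, -0.20 to 0.23 for SLC15A2, -0.0864 to 0.21 and -0.0819 to 0.0878 for SLC16A1, -0.13 to 0.43 for SLC16A3, -1.06 to 0.0318 for SLC29A1 probe 1, -0.71 to 0.39 for SLC37A4 probe 2, -0.45 to 0.25 for SLCO2A1, -0.0235 to 0.42 for SLCO3A1 and -0.48 to 0.13 for SLCO4A1. Signals below the background flag on some arrays limit SLC13A2, SLC16A12, SLC22A9 and SLC5A2 probe 2. SLC10A6 probe 1, SLC15A2 and SLC22A5 passed on all 6 arrays but also read low, down to 5.55, 5.64 and 6.64 units.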
